A study of Homo sapiens with 6 samples.

Results

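Interferon-stimulated genes were followed in the human mesothelioma cell line NCI-H226, grown as spheroids or as monolayers. Members were 46 genes listed by name as products of the interferon response, and each probe set that the array annotation assigns to one of them was taken. This gave 79 probe sets with a single gene symbol, out of 54675 on the array, and 2 more that the annotation shares between a member and another gene. The array reads 19775 genes by at least 1 single-symbol probe set, and all 46 genes were among them. Spheroids were seeded with 10000 cells each in wells coated with poly-HEMA, which prevents attachment, and incubated for 24 hours, while monolayers were adherent cultures of the same line. No drug, transgene or interferon is named for either group, and the 3 spheroid and 3 monolayer cultures were each hybridized to 1 array. Both groups derive from 1 cell line, so the comparison does not cover other tumors.

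Interferons are secreted proteins that bind receptors on the cell surface and activate JAK kinases and STAT transcription factors. Type I and type III interferons lead to a complex of STAT proteins with IRF9, which binds the interferon-stimulated response element (ISRE), whereas interferon gamma leads to a STAT dimer that binds the gamma-activated site (GAS). The induced genes restrict viruses at entry, RNA synthesis, translation and release, and many tumor cell lines keep some of them active without infection.

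Each probe set has a linear signal intensity, which the authors obtained by the MAS5 algorithm and scaled to a common trimmed mean per array. The median signal was 15.6, 18.0 and 15.2 on the spheroid arrays and 14.7, 14.6 and 14.7 on the monolayer arrays, so each array was centred on its median on the log2 scale before testing. Groups were compared by limma over 54613 probe sets, and a gene was called upregulated or downregulated when its p, adjusted by Benjamini-Hochberg over all of them, was under 0.05. A gene with several probe sets is represented by the one of highest mean level unless another is described. Log2 fold changes are spheroids minus monolayers, with a standard error and, for genes that did not pass, a 95% confidence interval. Correlations between arrays were 0.937 to 0.95 within groups and 0.926 to 0.933 between groups. For ACTB, the signal at the 3' end over that at the 5' end, which reflects RNA integrity, was 1.17 ± 0.0603 in spheroids and 1.09 ± 0.0123 in monolayers (SD, n = 3 each; p = 0.1 in an exact two-sided permutation test, which cannot go lower with 3 arrays against 3, and 0.2 adjusted over 2 ratios), and its part in the results was not tested. Of 7 measured mesothelial markers, WT1, a mesothelial transcription factor, had signals of 2009, 1811 and 1837 in spheroids and 1845, 1452 and 1347 in monolayers, and mesothelin (MSLN) 409, 378 and 298 in spheroids and 345, 218 and 179 in monolayers. Thrombomodulin (THBD), another of them, lay lower in spheroids, with 79.0 ± 21.9 in spheroids and 192 ± 136 in monolayers (SD, n = 3 each) and no overlap of the groups, and did not pass (log2 fold change -1.24, standard error 0.42, limma adjusted p = 0.109). The spheroid arrays all lay below the monolayer arrays for 20.6% of all genes. The podoplanin gene PDPN was the 1 mesothelial marker that passed, and its log2 fold change was 1.10 (adjusted p = 0.0396). All measurements come from bulk RNA, in which fewer expressing cells and less RNA per cell cannot be told apart.

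A majority of the interferon-stimulated genes were upregulated in spheroids, among them GBP1, GBP2 and GBP3, 3 of 4 OAS genes and at least 1 gene each of the IFIT, IFITM, PARP and IRF families, and none was downregulated. Of the 46 genes, 25 were higher in spheroids, where 3.88% of all 19775 genes were, 0 were lower, where 9.22% of all genes were, and 21 did not pass. At an unadjusted p under 0.05, 34 members were higher, where 9.62% of all genes were. By limma 0 members were lower at an unadjusted p under 0.05 as well, where 3548 of all 19775 genes were. By the methods' t-test 0 were lower, where 525 of all genes were. The median log2 fold change was 0.86 over the 46 genes and -0.06 over all genes. On the values as deposited the median of all genes was 0.08. The spheroid arrays all lay above the monolayer arrays for 31 of the 46 genes, against 11.7% of all genes. A log2 fold change above 0 was seen in 43 of the 46, against 9093 of all 19775 genes. Among the 25 upregulated genes the log2 fold change ran from 0.68 to 5.14, with 11 over 4-fold and 4 under 2-fold. At the level of probe sets 40 of 79 were higher and 0 lower, where 2.78% of all probe sets were higher and 6.65% lower. The study's own list of 5-fold changes, chosen on these samples, holds a probe set of 3 of the genes, GBP1, GBP2 and OAS2. Of the other 43 genes 22 were higher.

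**Figure D1:**
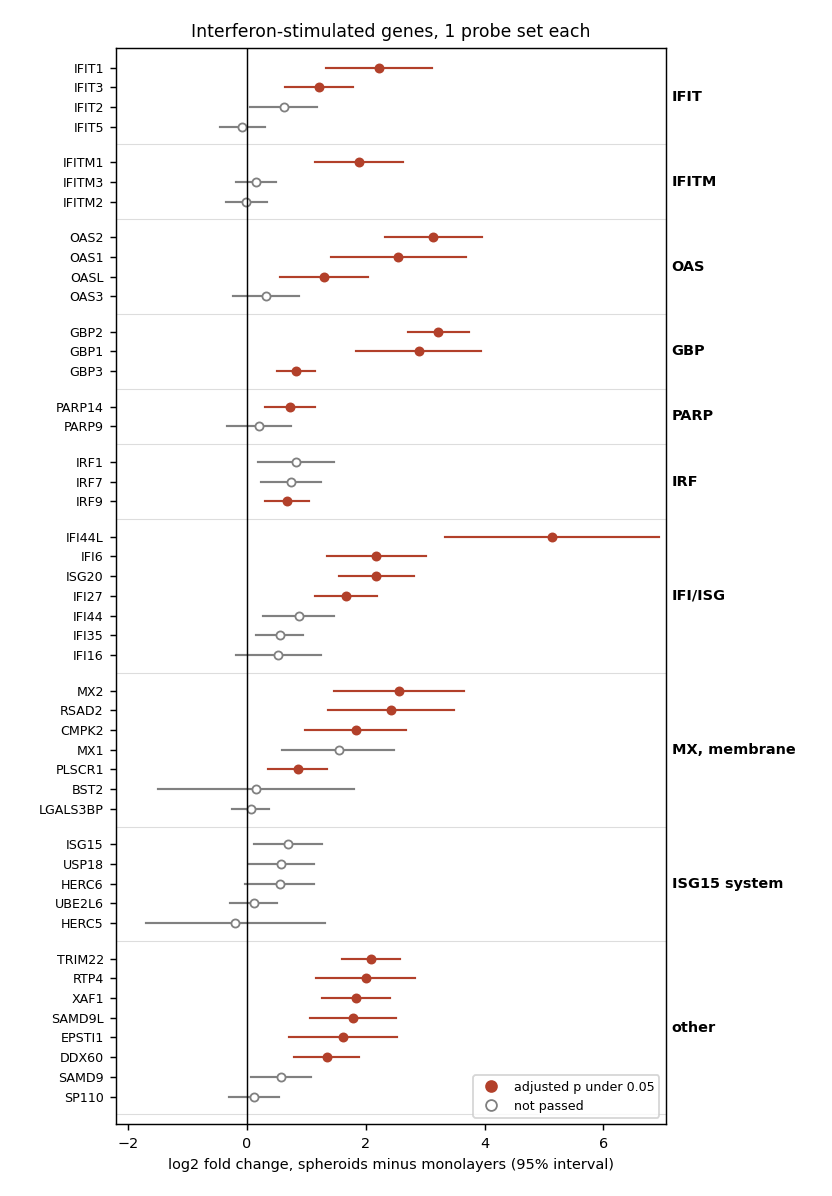
Log2 fold change of each of the 46 genes, spheroids minus monolayers (horizontal axis), with the 95% confidence interval as a line, grouped by family. Filled points passed limma at an adjusted p under 0.05 and open points did not; the 25 filled points all lie above 0, from 0.68 to 5.14.

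The counts depended on the test and on single cultures of both groups. The number of upregulated genes was 12 without spheroid 3 and 17 without spheroid 1, monolayer 2 or monolayer 3. Of all genes 1.63%, 2.39%, 2.15% and 2.12% were higher in the same order, against 3.88% with all arrays. Raising values under the 20th percentile to it left 8 genes, limma without the mean-variance trend 3 and the methods' t-test 2. The share of all genes called higher fell as well, to 2.36%, 0.435% and 0.662% in the same order. The probe sets called higher were 15 without spheroid 3, 23 without spheroid 1 and 25 without monolayer 3. GBP2 and TRIM22 passed under all 15 alternatives tried, and OAS2 under 14 of 15.

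The 3 guanylate-binding protein genes among the members, GBP1, GBP2 and GBP3, were upregulated, with a median log2 fold change of 2.89. These are large GTPases that coat intracellular pathogens and their vacuoles and are best known as targets of interferon gamma. GBP2 had signals of 160.0, 143 and 147 in spheroids, against 13.4, 17.7 and 12.9 in monolayers. Its spheroid values lay close together and far above the monolayers (log2 fold change 3.22, standard error 0.23, adjusted p = 0.000319). GBP1 had signals of 136, 101 and 168 in spheroids, against 23.2, 24.9 and 7.33 in monolayers (log2 fold change 2.89, standard error 0.47, adjusted p = 0.00607). Of the other GBP1 probe sets, one passed with a log2 fold change of 3.06 (standard error 0.36) and another with 4.01 (standard error 0.91), whereas the dimmest read 7.47 ± 5.48 in spheroids and 7.67 ± 0.359 in monolayers (SD, n = 3 each) and did not pass. GBP3 had signals of 2878, 2888 and 3302 in spheroids, against 1572, 1447 and 1602 in monolayers, a change of 1.77-fold (log2 fold change 0.83, standard error 0.14, adjusted p = 0.00853). The groups did not overlap for any of the 3 genes. GBP3 did not pass without monolayer 2, and the family's median was 2.31 without monolayer 3, the array with the lowest GBP1 signal. With its probe sets averaged GBP1 had a log2 fold change of 2.30.
GBP4 and GBP5, which are not among the members, did not pass. GBP4 had signals of 11.1, 10.9 and 17.6 in spheroids, against 1.99, 7.43 and 6.46 in monolayers (log2 fold change 1.35, interval -0.06 to 2.75). GBP5 had signals of 7.23, 1.33 and 12.2 in spheroids, against 0.511, 1.76 and 1.83 in monolayers, so its groups overlapped (log2 fold change 1.91, interval -0.30 to 4.12).

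The OAS family rose in 3 of 4 genes, with a median log2 fold change of 1.92. OAS1, OAS2 and OAS3 sense double-stranded RNA and make the 2-5A messenger that activates RNase L, whereas OASL lacks this activity and acts on RNA sensing. OAS2 had signals of 161, 96.4 and 183 in spheroids, against 21.6, 12.3 and 11.5 in monolayers (log2 fold change 3.14, standard error 0.36, adjusted p = 0.00141). Its other probe sets had log2 fold changes of 1.60, which passed, and 2.14, which did not, and the mean of the 3 gave 2.30. OAS1 had signals of 113, 64.0 and 142 in spheroids, against 21.4, 24.0 and 7.40 in monolayers (log2 fold change 2.55, standard error 0.50, adjusted p = 0.0142). OASL had signals of 324, 151 and 292 in spheroids, against 102, 94.7 and 72.7 in monolayers (log2 fold change 1.30, standard error 0.33, adjusted p = 0.0385). For OAS1, OAS2 and OASL the lowest spheroid was spheroid 2, and it still lay above the highest monolayer. OAS3 had signals of 442, 261 and 333 in spheroids, against 299.8, 222 and 219 in monolayers, so the groups overlapped (log2 fold change 0.32, interval -0.23 to 0.87), and its other probe set had a log2 fold change of -0.28 (interval -0.99 to 0.42). OAS1 lost its call without spheroid 1 or spheroid 3, and OASL also without monolayer 2 or monolayer 3.

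The IFIT family was split, with 2 of 4 genes upregulated and a median log2 fold change of 0.92. IFIT proteins bind viral RNA, including RNA whose cap lacks methylation, and block its translation. IFIT1 had signals of 1178, 554 and 1446 in spheroids, against 278, 161 and 151 in monolayers (log2 fold change 2.23, standard error 0.40, adjusted p = 0.00917). IFIT3, which stabilises the binding of RNA by IFIT1, had signals of 1182, 838 and 1523 in spheroids, against 391, 522 and 438 in monolayers (log2 fold change 1.21, standard error 0.26, adjusted p = 0.0193). Spheroid 2 was the lowest spheroid for both, and the groups did not overlap. IFIT2 had signals of 777, 548 and 914 in spheroids, against 399, 535 and 373 in monolayers. Spheroid 2 lay near monolayer 2, and after centring the groups overlapped. It did not pass (log2 fold change 0.62, interval 0.05 to 1.18, adjusted p = 0.181), but did without spheroid 2 and after quantile normalization. IFIT5 had signals of 379, 381 and 461 in spheroids, against 333, 415 and 419 in monolayers, and stayed within a 2-fold change either way (log2 fold change -0.08, interval -0.46 to 0.30). Its sign turned to 0.07 on the values as deposited and 0.11 after quantile normalization. IFIT3 lost its call without spheroid 1, spheroid 3 or monolayer 3.

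In the IFITM family 1 of 3 genes rose, and the median log2 fold change was 0.15. IFITM proteins sit in the plasma membrane and in endosomes and hinder the fusion of viruses with these membranes. IFITM1 had signals of 806, 537 and 945 in spheroids, against 118, 259.8 and 196 in monolayers (log2 fold change 1.88, standard error 0.33, adjusted p = 0.00835). IFITM2 had signals of 4294, 3622 and 3808 in spheroids, against 3331, 3809 and 3552 in monolayers (log2 fold change -0.01, interval -0.36 to 0.33). IFITM3 had signals of 4539, 4017 and 4458 in spheroids, against 3690.1, 3596 and 3302 in monolayers (log2 fold change 0.15, interval -0.19 to 0.49). Neither interval reached a 2-fold change, and IFITM2 turned to 0.13 on the values as deposited and 0.01 after quantile normalization. The probe sets of IFITM2 and IFITM3 carry the suffix _x_at, which marks probes that can also match other transcripts, and the 3 genes are close in sequence. Among the other members, the probe sets representing GBP1, which rose, and IFI16 and SP110, which did not pass, carry it too. A further probe set, which the annotation gives to both IFITM1 and IFITM2, had signals of 683, 476 and 768 in spheroids, against 129.9, 254 and 207 in monolayers (log2 fold change 1.59, standard error 0.29, adjusted p = 0.0109).

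The PARP and IRF families had small changes at the probe sets that represent their genes, with medians of 0.46 and 0.74 on the log2 scale. PARP9 and PARP14 belong to the ADP-ribosyltransferases and act in interferon signaling. PARP14 had signals of 441, 333 and 377 in spheroids, against 244, 201 and 185 in monolayers (log2 fold change 0.72, standard error 0.19, adjusted p = 0.0442). PARP9 had signals of 284, 186 and 212 in spheroids, against 228, 162 and 146 in monolayers, so its groups overlapped (log2 fold change 0.20, interval -0.34 to 0.74). The other PARP9 probe set was lower on every spheroid array, with 39.9, 23 and 29.4 in spheroids, against 78.6, 53.8 and 44.7 in monolayers (log2 fold change -1.08, interval -1.81 to -0.35, adjusted p = 0.0729). So were 9610 of all 54613 probe sets. PARP14 lost its call without any one of spheroid 1, spheroid 3, monolayer 2 and monolayer 3. With each gene's probe sets averaged PARP14 did not pass either (log2 fold change 0.63, adjusted p = 0.433), PARP9 was at -0.44 and the median of the family was 0.10.

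Interferon regulatory factors are the transcription factors of the response. IRF9, the DNA-binding partner of the STAT proteins in type I signaling, had signals of 781, 657 and 722 in spheroids, against 415, 447 and 360.5 in monolayers (log2 fold change 0.68, standard error 0.16, adjusted p = 0.0309). A further probe set, which the annotation shares between IRF9 and RNF31, had signals of 107, 106 and 111 in spheroids, against 111, 119 and 101 in monolayers, so its groups overlapped (log2 fold change -0.17, interval -0.54 to 0.19). IRF1, which also answers to interferon gamma and NF-kB, had signals of 401, 383 and 423 in spheroids, against 125, 293 and 237 in monolayers (log2 fold change 0.82, interval 0.18 to 1.47, adjusted p = 0.115). Its other probe set passed, with 353, 274 and 346 in spheroids, against 49.3, 122 and 101 in monolayers (log2 fold change 1.78, standard error 0.32, adjusted p = 0.01). With its probe sets averaged IRF1 passed limma as well (log2 fold change 1.30, adjusted p = 0.0326). IRF7, which drives the synthesis of interferon alpha, had signals of 199, 172 and 221 in spheroids, against 128, 113 and 82.0 in monolayers (log2 fold change 0.74, interval 0.24 to 1.24, adjusted p = 0.072). The groups did not overlap for IRF1, IRF7 or IRF9 at these single-symbol probe sets. IRF7 passed after quantile normalization, with the values as deposited, among probe sets above the median level and without monolayer 1, whereas IRF9 lost its call without any one of spheroid 1, spheroid 3, monolayer 2 and monolayer 3.

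**Figure D2:**
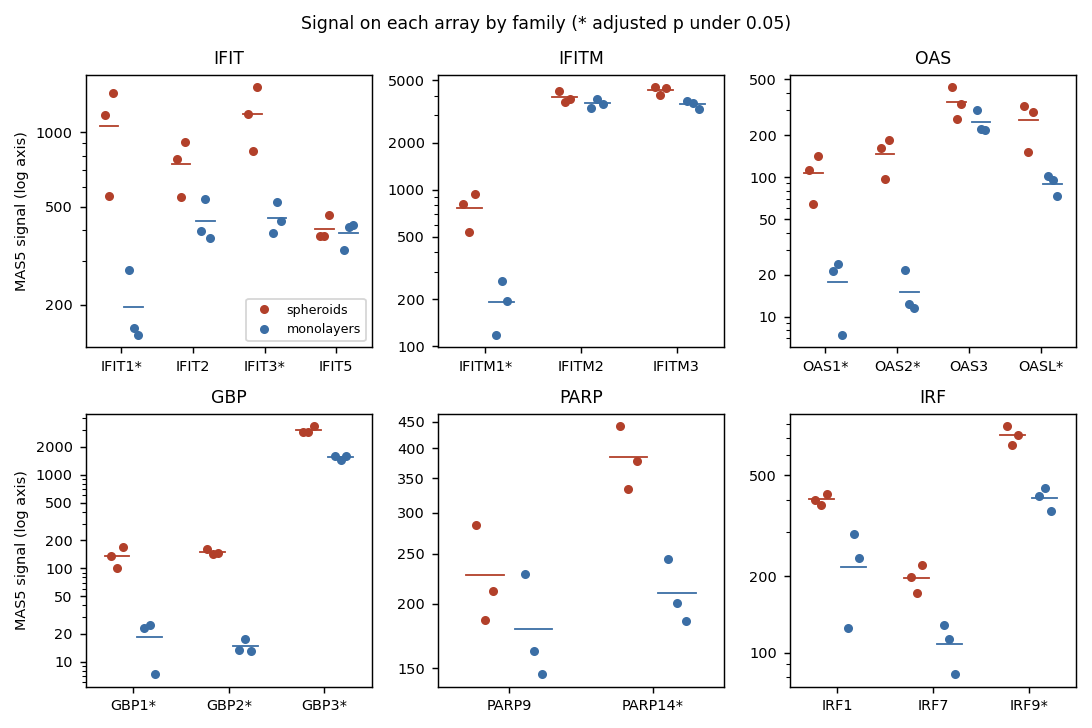
MAS5 signal on each array (vertical log axis, with its own range in each panel) for the genes of the 6 families, spheroids left and monolayers right of each gene's position, with a bar at the mean of 3 arrays. The spheroid arrays lie above the monolayer arrays without overlap for GBP1, GBP2 and GBP3, while the groups overlap for IFITM2, IFIT5, OAS3 and PARP9.

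Among the genes named IFI or ISG, 4 of 7 rose and the median log2 fold change was 1.66. IFI44L, whose product dampens the antiviral response through FKBP5, had signals of 88.9, 34.4 and 80.4 in spheroids, against 0.454, 3.29 and 2.79 in monolayers. The monolayer mean of 2.18 lay under the 20th percentile of all signals, 3.11, so the log2 fold change, 5.14 (standard error 0.80, adjusted p = 0.00512), rests on dim monolayer signals. It was 4.23 without monolayer 1, the dimmest, and 4.21 with values under that percentile raised to it. IFI6, a mitochondrial and endoplasmic reticulum protein that limits apoptosis, had signals of 1518, 853 and 1342 in spheroids, against 423, 198 and 167 in monolayers (log2 fold change 2.18, standard error 0.37, adjusted p = 0.00736). ISG20, an exonuclease that degrades viral RNA, had signals of 1019.6, 1172 and 1311 in spheroids, against 141, 325 and 273 in monolayers (log2 fold change 2.18, standard error 0.28, adjusted p = 0.00234). IFI27, a mitochondrial protein, had signals of 2372, 1974 and 2884 in spheroids, against 883, 641 and 553 in monolayers (log2 fold change 1.66, standard error 0.23, adjusted p = 0.00313). These 4 genes kept their call without any single array. IFI44, IFI35 and the DNA sensor IFI16 did not pass, with log2 fold changes of 0.87, 0.55 and 0.52 (intervals 0.27 to 1.47, 0.15 to 0.95 and -0.19 to 1.24).

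Upstream sequence was examined as a description of the members. The genes were listed as products of the interferon response, which acts through the elements searched here. A higher share in members than in all promoters therefore goes with the choice of the list and does not describe spheroids against monolayers. RefSeq promoters on GRCh38.p14, from 250 bases before to 50 bases after the gene start used in the table, were matched by symbol for 37 of the 46 genes. IFIT2, IFITM2, MX2, OAS2, OASL, GBP2, IRF7, USP18 and TRIM22 had no entry. The core of the response element, searched as GAAA, 2 bases of any kind and GAAA on both strands, was present in 24 of 37 members (64.9%) and in 996 of all 27305 promoters (3.65%). Of the upregulated members 14 of 20 held it (70%), and of the members that did not pass 10 of 17 (58.8%). The core of the gamma-activated site, TTCNNNGAA, which reads the same on both strands, was present in 12 of 37 members (32.4%) and in 2152 of all promoters (7.88%), with 9 of 20 (45%) among the upregulated and 3 of 17 (17.6%) among the others. Matches of the 2 motifs, and of the same motif, can share bases. A match is a description of the sequence and no evidence of binding.

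Below are the promoters of the 4 upregulated genes with the smallest adjusted p among those holding the response element core, then those of IFIT1 and IFIT5, which were chosen after their values were seen because they are neighbours on chromosome 10 that differ in response. Each runs 5' to 3' along the gene's strand, and capitals mark the response element core or its reverse complement. ISG20 lies at chr15:88638766-88639065 (plus strand), IFI27 at chr14:94110486-94110785 (plus), IFI44L at chr1:78620198-78620497 (plus), GBP1 at chr1:89065159-89065458 (minus), IFIT1 at chr10:89392373-89392672 (plus) and IFIT5 at chr10:89414318-89414617 (plus).
ISG20: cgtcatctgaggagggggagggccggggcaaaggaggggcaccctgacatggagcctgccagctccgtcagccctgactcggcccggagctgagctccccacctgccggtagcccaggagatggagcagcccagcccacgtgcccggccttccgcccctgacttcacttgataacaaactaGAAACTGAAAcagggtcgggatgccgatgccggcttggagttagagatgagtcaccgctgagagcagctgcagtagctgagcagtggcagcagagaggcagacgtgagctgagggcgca
IFI27: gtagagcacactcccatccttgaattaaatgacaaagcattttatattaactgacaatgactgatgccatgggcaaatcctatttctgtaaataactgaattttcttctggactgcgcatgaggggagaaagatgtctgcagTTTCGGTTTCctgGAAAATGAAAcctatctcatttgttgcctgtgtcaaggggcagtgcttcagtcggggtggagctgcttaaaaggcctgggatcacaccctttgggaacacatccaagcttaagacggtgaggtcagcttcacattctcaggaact
IFI44L: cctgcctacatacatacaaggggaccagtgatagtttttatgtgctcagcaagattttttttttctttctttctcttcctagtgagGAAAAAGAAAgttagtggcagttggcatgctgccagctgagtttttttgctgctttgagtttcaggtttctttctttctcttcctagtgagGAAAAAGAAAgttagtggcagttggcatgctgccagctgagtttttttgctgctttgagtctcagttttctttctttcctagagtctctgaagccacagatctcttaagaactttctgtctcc
GBP1: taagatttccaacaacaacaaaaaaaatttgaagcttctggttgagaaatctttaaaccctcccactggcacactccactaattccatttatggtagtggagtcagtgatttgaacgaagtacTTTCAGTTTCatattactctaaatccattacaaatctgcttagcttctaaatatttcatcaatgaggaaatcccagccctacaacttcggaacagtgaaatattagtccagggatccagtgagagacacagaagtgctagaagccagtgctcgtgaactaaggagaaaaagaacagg
IFIT1: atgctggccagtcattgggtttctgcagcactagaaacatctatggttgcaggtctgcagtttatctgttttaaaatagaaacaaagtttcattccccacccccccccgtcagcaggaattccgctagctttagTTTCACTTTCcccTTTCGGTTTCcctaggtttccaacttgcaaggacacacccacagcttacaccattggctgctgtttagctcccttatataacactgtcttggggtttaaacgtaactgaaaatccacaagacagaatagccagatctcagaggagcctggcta
IFIT5: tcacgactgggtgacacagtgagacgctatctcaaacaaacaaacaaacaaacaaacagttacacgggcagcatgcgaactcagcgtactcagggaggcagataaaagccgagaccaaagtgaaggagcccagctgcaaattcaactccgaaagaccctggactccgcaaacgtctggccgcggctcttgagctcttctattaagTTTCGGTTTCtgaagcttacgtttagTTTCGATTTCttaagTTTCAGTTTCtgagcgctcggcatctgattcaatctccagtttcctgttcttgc
IFIT1, with a log2 fold change of 2.23, held 2 matches, starting 116 and 103 bases before the gene start. IFIT5, with a log2 fold change of -0.08, held 3, starting 45, 19 and 4 bases before it. Both promoters held the core. Because this pair was chosen for its difference in response, it cannot show how the core relates to the response. GBP1 and GBP3 held the same 10 bases, TTTCAGTTTC, 127 bases before the start of GBP1 and 2 bases after that of GBP3. IFI6 held 3 matches, and IFI27 and IFI44L held 2 each. HERC5, BST2 and IFITM3, which did not pass, held 3, 2 and 2.

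Antiviral effectors that act at membranes or on nucleotide pools rose in 4 of 7 genes, with a median log2 fold change of 1.54. MX2, a dynamin-like GTPase that blocks the nuclear entry of retroviruses, had signals of 227, 112 and 242 in spheroids, against 53.1, 28.5 and 14.8 in monolayers (log2 fold change 2.56, standard error 0.49, adjusted p = 0.0122). RSAD2, or viperin, which makes a nucleotide analogue that ends viral RNA chains, had signals of 540.4, 189.7 and 486 in spheroids, against 106, 46.7 and 47.9 in monolayers (log2 fold change 2.43, standard error 0.47, adjusted p = 0.0134). CMPK2, a mitochondrial nucleotide kinase that neighbours RSAD2 in the genome, had signals of 569, 229 and 391 in spheroids, against 139.6, 79.4 and 76.1 in monolayers (log2 fold change 1.83, standard error 0.37, adjusted p = 0.0172). In all 3 genes monolayer 1 was the highest monolayer and spheroid 2 the lowest spheroid. PLSCR1, a phospholipid scramblase, had signals of 1482, 1101 and 1665 in spheroids, against 829, 655 and 634 in monolayers (log2 fold change 0.85, standard error 0.22, adjusted p = 0.0426). MX1, the paralog of MX2, had signals of 1316, 620.3 and 1017 in spheroids, against 521, 284 and 171 in monolayers, with groups that overlapped after centring, and did not pass (log2 fold change 1.54, interval 0.59 to 2.48, adjusted p = 0.0531). MX2 lost its call without spheroid 3, RSAD2 without spheroid 3, monolayer 2 or monolayer 3, and CMPK2 and PLSCR1 without any one of spheroid 1, spheroid 3, monolayer 2 and monolayer 3. The other PLSCR1 probe sets had log2 fold changes of 1.10, which passed, and -1.21, which did not and was dim, and with its 3 probe sets averaged PLSCR1 did not pass (log2 fold change 0.25, adjusted p = 0.695).
BST2, or tetherin, which holds budding virions at the cell surface, had signals of 370.2, 68.7 and 101 in spheroids, against 309.9, 72.0 and 62.3 in monolayers. The first array of each group was several times higher than the others, and the difference between the groups was small against this spread (log2 fold change 0.15, interval -1.50 to 1.80). The secreted glycoprotein LGALS3BP had 2283 ± 121 in spheroids and 1986 ± 247 in monolayers (SD, n = 3 each), and its log2 fold change was 0.06 (interval -0.25 to 0.37).

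Genes of the ISG15 system did not pass in any of 5 cases, and their median log2 fold change was 0.55. By limma 2 of the 5 were higher at an unadjusted p under 0.05, where 9.62% of all genes were. By the methods' t-test 0 were called, where 0.662% of all genes were higher. ISG15 is a ubiquitin-like protein that is attached to other proteins by UBE2L6 and HERC5 and removed by USP18. ISG15 had signals of 1102, 699 and 1294 in spheroids, against 519.7, 598 and 566 in monolayers (log2 fold change 0.69, interval 0.11 to 1.27, adjusted p = 0.145). USP18, also a brake on the type I receptor, had signals of 56.0, 49.3 and 64.4 in spheroids, against 31.8, 31.8 and 39.5 in monolayers (log2 fold change 0.57, interval 0.03 to 1.12, adjusted p = 0.199). The signals lay higher in spheroids for both, after centring the groups overlapped for ISG15, and neither difference passed. UBE2L6 had a log2 fold change of 0.12 (interval -0.28 to 0.51), HERC6, a relative of HERC5, 0.55 (interval -0.03 to 1.13) and HERC5 -0.20 (interval -1.70 to 1.31), the last at signals of 3.92 to 16.7 in spheroids and 5.02 to 11.7 in monolayers.

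Of the other 8 members, which act on nucleic acids or in the nucleus or have less settled roles, 6 rose, and the median log2 fold change was 1.69. TRIM22, a ubiquitin ligase that restricts retroviral transcription, had signals of 229, 200.1 and 251 in spheroids, against 39.5, 58.5 and 48.6 in monolayers (log2 fold change 2.08, standard error 0.21, adjusted p = 0.000988). Its groups were far apart, and each was even. RTP4, a chaperone of G protein-coupled receptors, had signals of 64.0, 57.8 and 76.9 in spheroids, against 11.7, 25.5 and 11 in monolayers (log2 fold change 2.0, standard error 0.37, adjusted p = 0.0109). XAF1, a proapoptotic partner of XIAP, had signals of 369, 291 and 423 in spheroids, against 103, 108 and 66.6 in monolayers (log2 fold change 1.83, standard error 0.25, adjusted p = 0.00296), and 1.18 with its probe sets averaged.
SAMD9L, a translational repressor, had signals of 228, 173 and 258 in spheroids, against 35.9, 83.0 and 62.3 in monolayers (log2 fold change 1.78, standard error 0.32, adjusted p = 0.00977). EPSTI1 had signals of 156, 66.2 and 118 in spheroids, against 50.1, 25.5 and 25.0 in monolayers (log2 fold change 1.61, standard error 0.40, adjusted p = 0.0386). DDX60, a helicase that promotes RNA sensing, had signals of 917, 528 and 739 in spheroids, against 288, 222 and 255 in monolayers (log2 fold change 1.34, standard error 0.24, adjusted p = 0.00982). None of these genes had overlapping groups. SAMD9, the paralog of SAMD9L, had 1191 ± 353 in spheroids and 708 ± 67.8 in monolayers (SD, n = 3 each) and did not pass (log2 fold change 0.57, interval 0.07 to 1.07), and neither did the nuclear body protein SP110 (0.12, interval -0.31 to 0.54). RTP4, SAMD9L and DDX60 lost their call without spheroid 3, and EPSTI1 without any one of spheroid 1, spheroid 3, monolayer 2 and monolayer 3.

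Spheroid 2 carried the smallest response among the spheroids. After centring it had the lowest level of the 3 spheroids in 25 of the 25 upregulated genes, and in 478 (62.2%) of all 768 genes called higher. Because its array median was the highest of the 6, the values as deposited were examined too: there it was lowest in 23 of the 25 genes (92%) and in 235 (30.6%) of the 768. The median gap of spheroid 2 below the mean of spheroids 1 and 3 was 0.87 on the log2 scale over the 25 genes, 0.23 over the 768 genes and 0.17 over all genes. The gap was widest for RSAD2, at 1.66, IFI44L, at 1.53, and IFIT1, at 1.47, and narrowest for GBP2 and GBP3, at 0.33 each, and ISG20, at 0.21. The 3' over 5' ratio for ACTB was 1.18 in spheroid 2, between 1.11 in spheroid 1 and 1.23 in spheroid 3, and the part of RNA quality in this spread was not tested. Without spheroid 2 the 25 genes kept their call, and 31 of the 46 were higher, where 2.77% of all genes were.

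**Figure D3:**
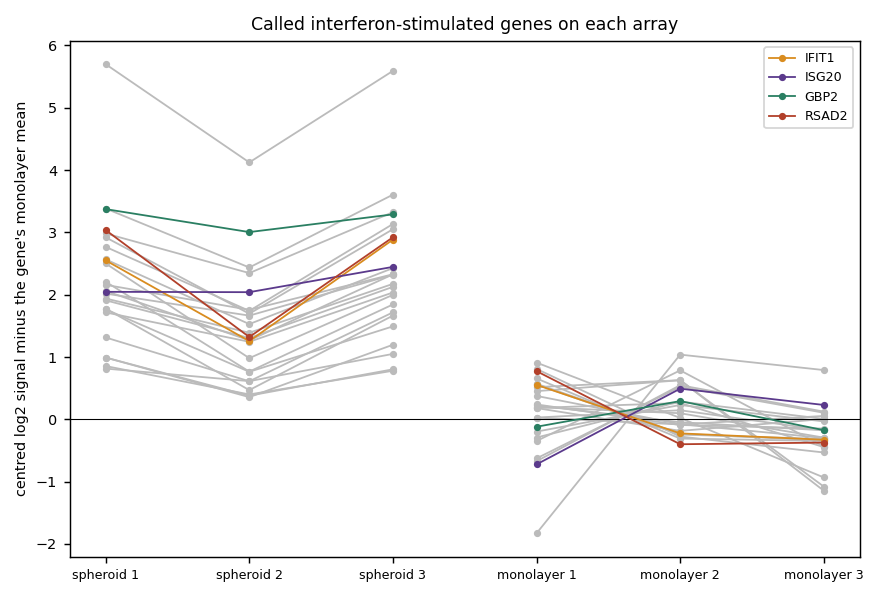
Centred log2 signal of the 25 upregulated genes on each array, minus the gene's mean over the 3 monolayers (vertical axis), with spheroids on the left and monolayers on the right; each line joins the values of 1 gene, and replicates have no order. Every gene has its lowest spheroid value in spheroid 2, with a wide dip for RSAD2 and IFIT1 and a narrow one for GBP2 and ISG20.

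Genes with several probe sets were compared across them. Of 23 such genes, 7 were higher at all their probe sets, 6 were higher at the main one but not at every other, 2 only at another, and 8 at none. The 2 were IRF1 and SP110. One of the 5 SP110 probe sets had signals of 197, 171 and 169 in spheroids, against 95.2, 92.4 and 86.9 in monolayers (log2 fold change 0.82, standard error 0.16, adjusted p = 0.0144), whereas the other 4 had log2 fold changes of 0.02 to 0.21. Of 33 secondary probe sets 15 were higher and 18 did not pass, and 7 of the 33 had mean signals under 20 in both groups, of which 0 were higher. Transcript isoforms and the position of each probe set in the transcript were not analysed here.

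**Figure D4:**
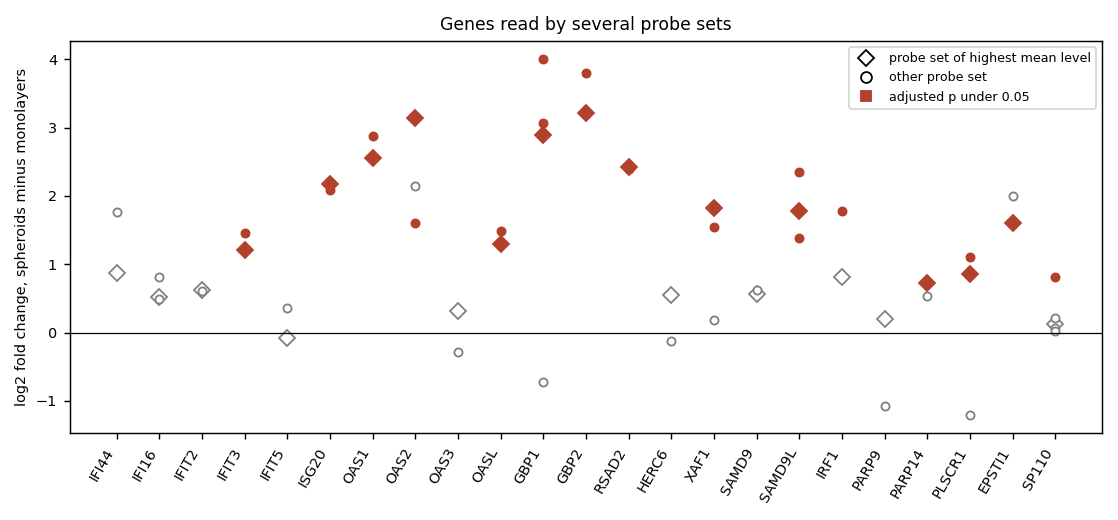
Log2 fold change, spheroids minus monolayers (vertical axis), of every single-symbol probe set of the 23 genes that have more than 1, with diamonds for the probe set of highest mean level, circles for the others and filled red for those that passed. ISG20, OAS1, OASL and RSAD2 agree across their probe sets, while IRF1, PARP9, SP110, GBP1 and PLSCR1 have probe sets that differ.

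Other genes of the pathway were taken from lists of ligands, receptors, sensors and further effectors. Of all genes limma called 3.88% higher and 9.22% lower, and the methods' t-test called 0.662% higher. At an unadjusted p under 0.05 limma had 9.62% of all genes higher. With lists this short, 0 or 1 call does not set a list apart from all genes. Of 18 measured interferon genes, 0 were called in either direction by limma or by the methods' t-test, with 1 higher and 1 lower at an unadjusted p under 0.05, and their signals lay between 0.346 and 22.3. IFNB1, encoding interferon beta, had signals of 1.90, 2.22 and 1.02 in spheroids, against 2.49, 1.65 and 1.47 in monolayers. These values lie under the 20th percentile, so a difference was not detectable at these signals. Of 6 receptor subunits 3 were higher and 0 lower by limma, and 0 were called by the methods' t-test. IFNGR1, the ligand-binding chain of the interferon gamma receptor, had signals of 3357, 3196 and 3338 in spheroids, against 1845, 988 and 980.4 in monolayers (log2 fold change 1.30, standard error 0.24, adjusted p = 0.011). IL10RB, a chain of the type III receptor, and IFNAR1, of the type I receptor, were also higher, at 0.72 (standard error 0.15) and 0.59 (standard error 0.13) on the log2 scale. Of 3 measured receptor kinases, JAK1, JAK2 and TYK2, 0 passed limma, an unadjusted p under 0.05 or the methods' t-test. Among 5 other interferon regulatory factors 0 passed limma, also without adjustment, and IRF4 was higher by the methods' t-test, with IRF3, which is activated by sensors of viral nucleic acid, at -0.02 (interval -0.48 to 0.44).
Of 11 sensors of RNA and DNA only IFIH1, or MDA5, which recognises long double-stranded RNA, rose, with signals of 379, 304 and 371 in spheroids, against 186, 141 and 136 in monolayers (log2 fold change 1.05, standard error 0.20, adjusted p = 0.0113). None of the 11 was called by the methods' t-test, and at an unadjusted p under 0.05 limma had 4 higher and 0 lower, the others being AIM2, IKBKE and TBK1. Of 28 further interferon-stimulated effectors 2 rose and 26 did not pass, where 3.88% of all genes were higher. By the methods' t-test 0 of the 28 were called, and at an unadjusted p under 0.05 limma had 6 higher and 1 lower. CXCL10, a chemokine for activated T cells, had signals of 124, 62.2 and 220.4 in spheroids, against 16.3, 4.22 and 16.9 in monolayers (log2 fold change 3.36, standard error 0.63, adjusted p = 0.0117). TNFSF10, or TRAIL, had signals of 57.2, 25.9 and 88.3 in spheroids, against 8.55, 5.33 and 5.16 in monolayers (log2 fold change 2.90, standard error 0.52, adjusted p = 0.00965). In both the lowest spheroid was again spheroid 2. Of 10 leukocyte markers 0 passed limma or the methods' t-test, with 2 higher at an unadjusted p under 0.05, and their summed signal was 194 to 234 in spheroids and 146 to 176 in monolayers. The part of other cell types in these results was not tested.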

How the data were processed

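RNA of 3 spheroid and 3 monolayer cultures was hybridized to Affymetrix Human Genome U133 Plus arrays. The deposited signal intensity of each probe set was computed by the authors with MAS5 (version not given in the sources used here), scaled to a mean of 150.0 without the highest and lowest 2% of probe sets. The normalization to the median that the methods name is not seen in these values. Detection calls were not used here. Precision is limited by having 3 arrays per group. Whether p-values cover more than the spread between these 6 cultures is not known.

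Of 54675 probe sets 62 controls were left out. Signals were transformed to log2 with no pseudocount, floor or filter, centred on the array median, and fitted with limma 3.58.1 under R 4.3.3 with a mean-variance trend. This replaced the t-test of the methods, which is an alternative. The pipeline was tested on simulated data. The annotation gives 41097 probe sets 1 symbol and 1801 several. Members, lists and tests were chosen with earlier results of these data known. Values on every array are given for the 6 families and for other members that were called, and among pathway genes for up to 8 that were called. Other members and genes given with values were chosen after these were seen, except IRF3 and IFNB1. Alternatives covered scaling (as deposited, quantile), dim probe sets (raising signals to the 20th percentile, or testing those over the median level), the test (no trend, the methods' t-test, adjusted or not, a replicate block), leaving out each array, and averaging a gene's probe sets. Protein sequences were not used here.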

Additional observations from a re-analysis of the deposited data

How the results depend on the processing

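No member gene was called lower under any of the 15 alternatives. The genes called higher, 25 with the settings used, were 8 with values under the 20th percentile raised to it, 3 with no trend in limma, 2 under the methods' t-test, and 12 to 31 with each array left out. The share of all genes called higher, 3.88% with the settings used, was 2.36%, 0.435% and 0.662% in the same order. With each array left out that share was 1.63% to 5.6%. Probe sets called higher, 40 with the settings used, were 14, 4 and 2 in the same order, and 15 to 46 with each array left out. The cause of these losses was not tested. The values as deposited and quantile normalization gave 31 and 32 genes, where 6.76% and 6.6% of all genes were higher. Among the genes gained were IRF7 in both settings and IFIT2 after quantile normalization. The others gained were members outside the 6 families that did not pass with the settings used. They were not followed gene by gene, so for such members not passing is stated for centred values only. The dimmer PARP9 probe set was the 1 probe set called lower, among probe sets above the median level, by the methods' t-test without adjustment and with the replicate block. The replicate block otherwise gave 44 probe sets and 27 genes higher, where 4.96% of all genes were. Whether same-numbered cultures were paired is not known. Over all probe sets their deviations from the group means correlated at 0.09, -0.01 and 0.02, and only number 1 correlated best with its own number. Correlations over all probe sets cannot show whether single genes varied with the number. The median log2 fold change of the GBP family was 2.30 with a gene's probe sets averaged and 2.31 to 3.20 with each array left out, and that of the PARP family 0.10 with probe sets averaged. IFIT5 changed sign as deposited (0.07), with quantile normalization (0.11) and with probe sets averaged (0.14), and ran from -0.22 to 0.04 with each array left out, above 0 only without spheroid 2. IFITM2 did so as deposited (0.13) and with quantile normalization (0.01), and ran from -0.11 to 0.12 with each array left out, above 0 without spheroid 2 or monolayer 2. PARP9 was -0.44 with probe sets averaged and -0.00 (without spheroid 1) to 0.41 with each array left out. None of these values passed. Low signals limit what the interferon genes can show.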

Other observations

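Some markers of mesothelial cells varied among the cultures of both groups. KRT5, a basal keratin, had signals of 910.5, 267 and 290.4 in spheroids and 1845, 129.9 and 79.3 in monolayers, and CALB2, or calretinin, 2238, 1317 and 1765 in spheroids and 1582, 163 and 83.6 in monolayers. In both genes monolayer 1 lay above the other monolayers and spheroid 1 above the other spheroids. The same held for a range of interferon-stimulated genes and was not peculiar to a few. Among them were BST2, MX1, IFI44, HERC6, OAS3 and PARP9, which did not pass. Upregulated genes with this order were IFI6, RSAD2, CMPK2, EPSTI1, DDX60, OASL and PARP14. It did not hold for other members, such as GBP2, TRIM22 and IFIT1. What sets these cultures apart was not tested. PML, a nuclear body protein and interferon target, had signals of 136, 135 and 106 in spheroids and 154, 187 and 168 in monolayers, with groups that did not overlap (log2 fold change -0.59, interval -0.94 to -0.23, adjusted p = 0.0502 by limma). It did not pass, and the spheroid arrays all lay below the monolayer arrays for 20.6% of all genes.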
